A study of Drosophila melanogaster with 48 samples.

Results

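Line 859 was 1 of 8 numbered lines of the fruit fly Drosophila melanogaster profiled on whole-body expression arrays. Its 6 arrays were chosen by the line number in their titles and were set against the 42 arrays of the other 7 lines, so that 6 of 48 arrays belong to it. The question was which transcripts had their highest or their lowest level in line 859 whichever food the larvae had eaten.

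Larvae of each line had been fed cornmeal-molasses medium (standard), that medium with tomato paste added, or that medium with ethanol added at 9%. Emerged adults of all groups were moved to the standard medium before total RNA was taken from whole bodies, and each combination of line and medium holds 2 arrays. The other lines were 158, 304, 362, 379, 380, 774 and 786. The labels do not say what the line numbers stand for, and they are treated here as fly lines; no sex is given, and an age of 3 to 5 days stands beside 4 arrays only, none of line 859. The titles of the 2 ethanol arrays of line 859 run the line number into the medium code with a zero in place of the letter O, which was read as the ethanol code. Nothing states that the 2 arrays of a combination are separate cultures, so they were averaged before line 859 was tested against the mean of the other lines. A p-value of that test sets the difference against variation of line differences from medium to medium, part of which may be technical. It does not measure the spread between lines. The test by medium uses the spread between the 2 arrays of a combination, which may be technical too.

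Lines of one fly species kept apart differ in the level of many transcripts. Genes for enzymes that handle foreign compounds, such as cytochrome P450s, glutathione S-transferases and UDP-glycosyltransferases, sit in clusters of related copies in the fly genome, as do genes of odorant-binding proteins and gut proteases. Odorant-binding proteins are small secreted carriers of hydrophobic molecules, best known from the fluid around olfactory neurons and also made in other tissues.

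The arrays of line 859 resembled those of the other lines in general measures. Their median signal ran from 132.5 to 152.9, against 85.9 to 163.0 on the other 42. Arrays of the same line and medium correlated at 0.941 to 0.991 in line 859 and 0.783 to 0.990 elsewhere. An eggshell index averaged the log2 signals of 8 genes of the chorion and the vitelline membrane, the layers that ovarian follicle cells lay around the egg. It was between 11.15 and 13.25 in line 859 and between 4.50 and 13.88 on the other arrays. Its lowest value in line 859 was that of tomato array 4. None of the 9 arrays of lowest index, which reached up to 10.67, belonged to line 859. Titles that join line and medium and carry a hyphen stand on 15 arrays, among them tomato array 4 and both ethanol arrays of line 859, while its other 3 arrays have spaced titles.

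Line 859 differed from the mean of the other 7 lines at many genes. The same comparison called 980 to 3532 probe sets for each of the other lines, so line 859 had the smallest count of the 8. In all, 970 of 11261 probe sets passed an adjusted p of 0.05 in limma, or 8.61%. Of these, 441 were higher (3.92%) and 529 were lower in line 859 (4.7%). After centring each array on its median, the split was 307 higher and 632 lower, so that the share of higher calls was 32.7% in place of 45.5%. Called differences had a median size of 0.70 on the log2 scale. Differences larger than 1 numbered 95 upward and 150 downward, and differences larger than 2 numbered 17 and 38. In each of the other 7 lines, too, differences over 2 were more often downward, with 8 to 26 upward and 26 to 48 downward. Counted by gene, with each gene represented by its tested probe set of highest mean signal, 785 of 9419 genes were called (8.33%), 365 of them higher (3.88%) and 420 lower (4.46%). A lower signal in whole-body RNA can mean fewer cells of a type or less RNA per cell, which cannot be told apart here.

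**Figure D1:**
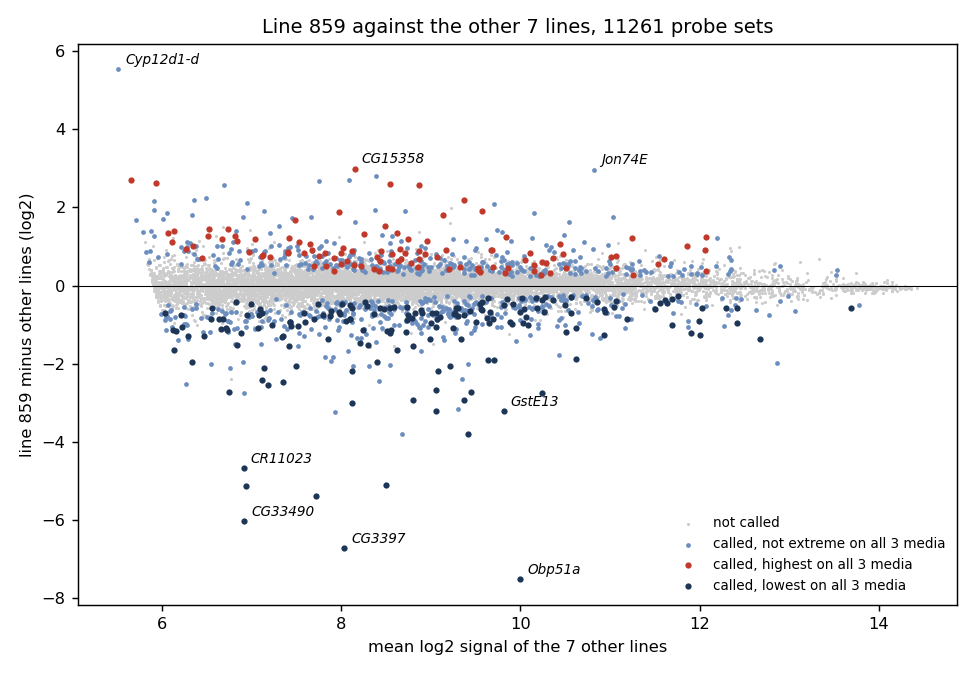
Each point is 1 of 11261 tested probe sets, with the mean log2 signal of the other 7 lines on the horizontal axis and line 859 minus those lines, in log2 units, on the vertical axis. Red and dark blue points were called and had their highest or lowest line mean in line 859 on all 3 media; the downward tail reaches -7.52 at Obp51a, and the upward one 5.53 at Cyp12d1-d.

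A gene could be called because line 859 alone stood apart or because it shared a high or low level with some other lines. Of the called genes, 90 had their highest line mean in line 859 on each of the 3 media (0.956%), and 145 had their lowest there (1.54%). Without the test, 125 probe sets had their highest line mean there on all 3 media (1.11%) and 176 their lowest (1.56%). The 2 counts of called genes, made for each of the other 7 lines in turn, ran from 70 to 317 and from 96 to 279, so those of line 859 lay within the range of the other lines. The gaps to the next line were measured among probe sets kept by their mean over all 48 arrays. That filter keeps a gene near the floor in line 859 alone more readily than one near the floor in the other 7 lines, so gaps of the lowest and the highest genes cannot be compared. The median gap to the next line was 0.48 log2 units for the lowest genes, with 29 gaps over 1 and 15 over 2. For the highest genes it was 0.34, with 4 gaps over 1 and 0 over 2.

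The gene with the largest fall was Obp51a, which encodes an odorant-binding protein. Its log2 signals in line 859 were 1.78 and 1.15 on standard medium, 2.50 and 4.11 on tomato medium, and 1.89 and 3.42 on ethanol medium. On the other 42 arrays it ran from 6.84 to 12.41 with a median of 10.91. No array of another line reached down to line 859. The difference of the means was -7.52 (SE 0.28, adjusted p = 2.81e-12 in limma). The other lines were themselves split, with means of 7.15 in line 362 and 7.69 in line 379 and of 10.45 to 11.49 in the remaining 5. Set against that spread between lines, its difference did not pass (adjusted p = 0.394, limma on line means). Signals as low as those of line 859 may lie at the background of the arrays, for which no detection calls were used here, so the sizes of such differences are uncertain.

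For 3 other genes the signal of line 859 was near the bottom of the scale while all other lines sat close together. CG3397 had log2 signals between 0 and 2.94 in line 859 (median 1.19) and between 7.11 and 8.90 on the other arrays (median 8.09), a difference of -6.73 (SE 0.18, adjusted p = 2.33e-14 in limma). CG33490 ran from 0 to 2.33 in line 859 and from 5.13 to 8.32 elsewhere, a difference of -6.04 (SE 0.26, adjusted p = 1.74e-11). CR11023, which RefSeq lists as a pseudogene, ran from 1.53 to 2.87 in line 859 and from 5.71 to 7.74 elsewhere, a difference of -4.67 (SE 0.22, adjusted p = 9.39e-11). At all 3 the groups of arrays did not overlap. The SD of the other 7 line means was 0.24 for CG3397, 0.45 for CG33490 and 0.18 for CR11023, far smaller than the differences. The CG numbers are gene identifiers for which the tables used here give no function.

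Among the lowest genes, 4 with a known product had levels in line 859 well above the bottom of the scale, GstE13, qless, Pi4KIIalpha and Sodh2. The means of qless and Sodh2 there were under the filter level of 5.90, so their sizes too are uncertain. GstE13 encodes a glutathione S-transferase of the epsilon class, which conjugates glutathione to reactive compounds. Its log2 signals were 6.36 to 6.83 in line 859 and 9.21 to 10.39 on the other arrays, and the means were 6.60 ± 0.07 (SD, n = 3 media) and 9.81 ± 0.16 (SD, n = 7 lines). This is a 9.29-fold lower level (log2 difference -3.22, SE 0.11, adjusted p = 1.09e-12 in limma). The gene qless, whose product makes the isoprenoid tail of coenzyme Q, had signals of 5.33 to 6.22 in line 859 and 7.89 to 9.92 elsewhere, a difference of -3.21 (SE 0.18, adjusted p = 7.33e-10). Pi4KIIalpha encodes a type II phosphatidylinositol 4-kinase, an enzyme of membrane lipid signalling. It ran from 7.25 to 7.71 in line 859 and from 9.82 to 10.66 elsewhere, 6.78-fold lower (log2 difference -2.76, SE 0.09, adjusted p = 4.35e-13). None of these 3 genes showed any overlap between the groups of arrays, and their differences on single media lay between -3.29 and -3.18 for GstE13, -3.25 and -3.15 for qless, and -2.83 and -2.71 for Pi4KIIalpha.

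Sodh2, a sorbitol dehydrogenase gene, had signals of 5.73 and 5.26 on standard, 5.88 and 5.83 on tomato and 4.83 and 3.13 on ethanol medium in line 859. Elsewhere it ran from 7.08 to 9.44. The groups did not overlap, and the difference was -3.01 (SE 0.21, adjusted p = 1.66e-08 in limma). By medium it was -2.50 (standard), -2.63 (tomato) and -3.91 (ethanol), a variation that was not called.

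The remaining 4 of the 12 largest falls came with wide spread among the other lines. CG32523 had a mean of 2.33 in line 859 and of 4.35 in line 304, against 7.90 to 8.75 in the others, and 3 arrays of other lines overlapped those of line 859. Its difference was -5.39 (SE 0.30, adjusted p = 8.82e-10 in limma). CG30083 averaged 1.81 in line 859 and from 4.70 in line 158 to 9.61 in line 304, a difference of -5.14 (SE 0.27, adjusted p = 4.13e-10). CG4757 averaged 3.40 in line 859 and 4.61 in line 362, with a difference from the mean of the 7 lines of -5.11 (SE 0.39, adjusted p = 6.17e-08). CG6839 ran from 5.28 to 5.93 in line 859 and from 6.08 to 11.74 elsewhere with no overlap, a difference of -3.81 (SE 0.23, adjusted p = 3.65e-09).

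**Figure D2:**
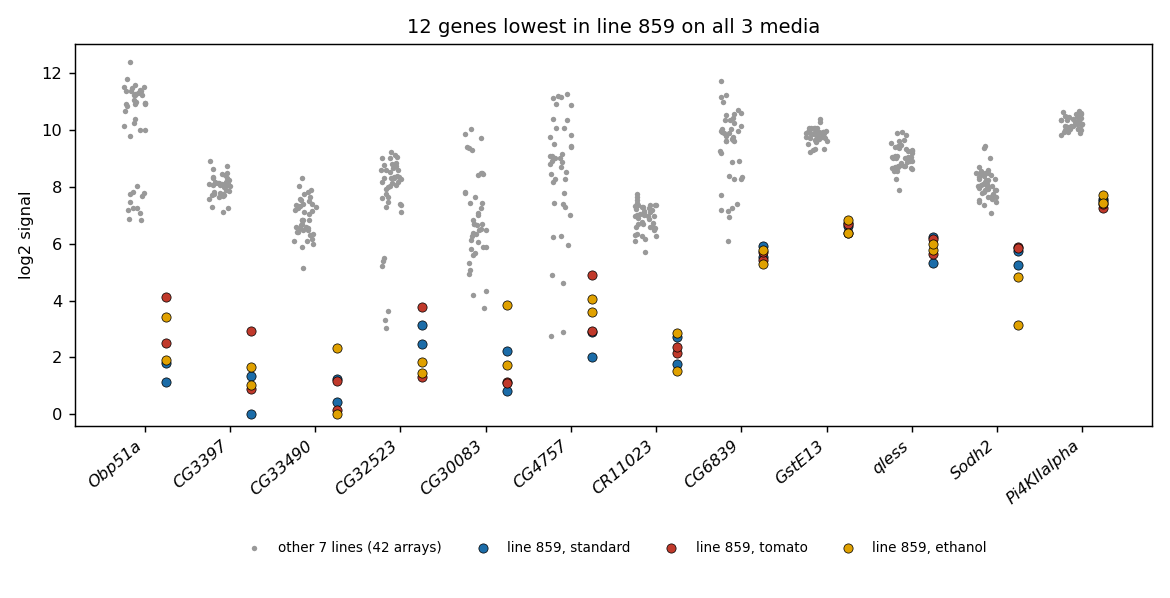
Log2 signal (vertical axis) of the 12 genes with the largest falls among those called and lowest in line 859 on all 3 media. Grey points are the 42 arrays of the other lines and coloured points the 6 arrays of line 859 by medium. At 9 of the 12 genes the 2 groups do not overlap, and CG32523, CG30083 and CG4757 are the exceptions. These 12 were picked for their falls. Among all tested probe sets the 6 arrays lay below the other 42 at 0.311%.

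A stricter question was whether line 859 lay outside the spread of the other lines, tested on the 8 line means with 7 lines giving the error. Of 11261 probe sets, 16 passed (0.142%); 15 were lower and 1 was higher in line 859. At an unadjusted p under 0.05 there were 343, fewer than the 563 that chance would give. The counts of passing probe sets made in this way for the other lines ran from 10 to 42. The genes with the smallest p were CG3397 (adjusted p = 1.72e-05), CR11023, Pi4KIIalpha, GstE13, CG1635, qless, CG33490, Sodh2, Irp-1B and CG15343 (adjusted p = 0.0109).

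The last of these to be described are CG1635, Irp-1B and CG15343. CG1635 had signals of 6.51 to 6.83 in line 859 and of 9.09 to 9.73 on all other arrays. It was 6.62-fold lower (log2 difference -2.73, SE 0.07, adjusted p = 8.21e-15 in limma). Irp-1B encodes a member of the iron regulatory protein family. Its signals were 8.58 to 8.85 in line 859 and 10.29 to 11.38 elsewhere, 3.66-fold lower (log2 difference -1.87, SE 0.09, adjusted p = 8.79e-11). CG15343 ran from 3.62 to 5.36 in line 859 and from 6.15 to 7.85 elsewhere, a difference of -2.43 (SE 0.16, adjusted p = 9.74e-09). All 3 were low on every array of line 859.

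Of the other 5 genes that passed, 1 was higher in line 859. Polr1E, a subunit of RNA polymerase I, the enzyme that transcribes ribosomal RNA genes, had signals of 10.86 to 11.25 in line 859 and of 9.02 to 10.46 elsewhere. It was higher by 1.24 (SE 0.15, adjusted p = 2.96e-05 in limma) and had an adjusted p of 0.0436 against the spread of lines. No higher probe set passed that test when line 158, 304, 362, 379, 774 or 786, tomato array 1 or ethanol array 3 was left out, after centring on the median, or among the upper 40% of probe sets. Within hyphen titles alone Polr1E was not called against the mean of the other lines either (difference 0.96, adjusted p = 0.0999). Dhit averaged 6.46 in line 859 and from 8.05 to 8.62 in the other lines, CG18540 averaged 4.87 against 6.92 to 7.98, and neither overlapped on single arrays. CG31345 averaged 4.65 against 6.65 to 7.41, with 1 overlapping array. The UDP-glycosyltransferase gene Ugt302E1 averaged 4.03 ± 1.00 (SD, n = 3 media) against 6.14 to 7.36, with 4 overlapping arrays. These 5 genes and the 10 above give 15 of the 16 probe sets.

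**Figure D3:**
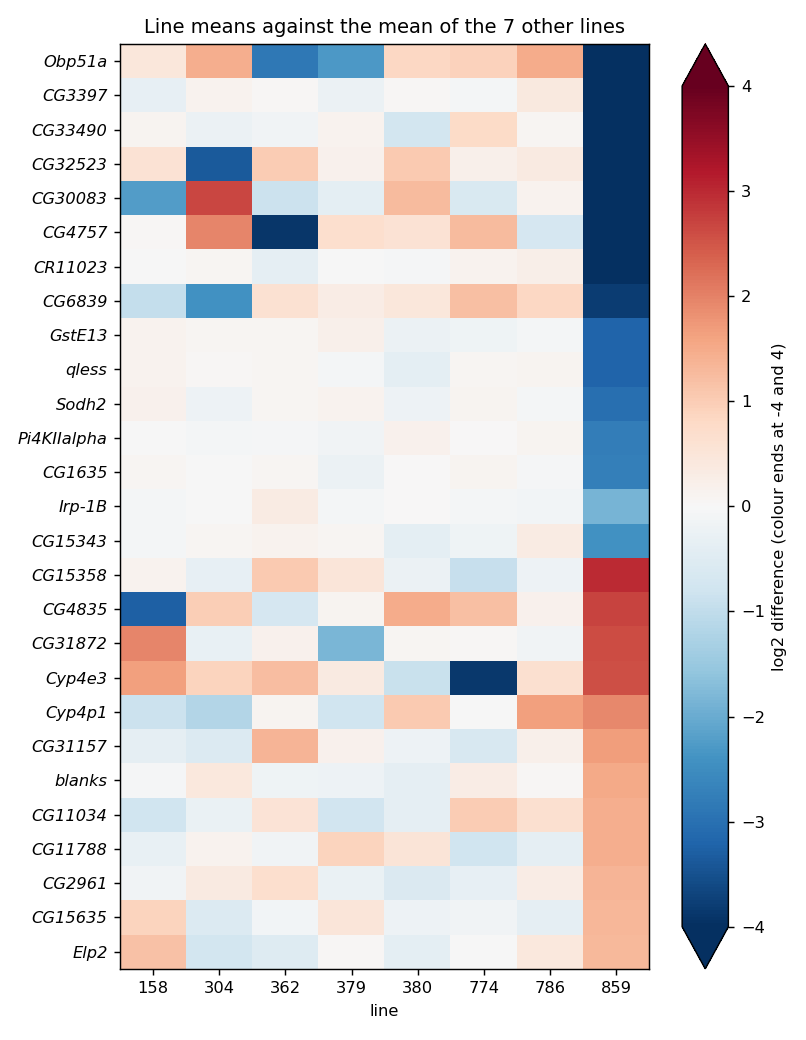
Line means of 27 genes, 15 of the lowest or farthest apart and the 12 highest in line 859, shown as log2 difference from the mean of the other 7 lines (colour, ending at -4 and 4). CG3397, GstE13, qless and CG1635 are pale in every column but that of line 859, while Obp51a, CG4757, CG4835 and Cyp4e3 also vary strongly among the other lines.

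The 16th probe set that passed belongs to fs(2)ltoPP43 and did not match the rest of its gene. That probe set averaged 5.88 in line 859 and 8.81 elsewhere, a difference of -2.93. The other 2 tested probe sets of the gene differed by -0.001 and -0.11, with adjusted p of 0.999 and 0.723 in limma. At ps a probe set 2.20 lower in line 859, with no overlap between the groups, differed from 3 others in size and not in direction. Those 3 differed by -0.63, -0.44 and -0.52 (adjusted p = 9.85e-03, 0.233 and 0.0825 in limma). Of the 68 further tested probe sets of 45 called genes, 53 differed in the same direction as the one representing the gene, 16 were called in that direction, 1 was called in the opposite direction and 51 were not called. Whether base differences between the line and the array's probes add to a low signal was not tested. Arc1, whose product forms capsids that carry RNA between cells, had its highest line mean in line 859 at 13.32, against 11.09 to 12.86 in the other lines (difference 1.24, SE 0.10, adjusted p = 1.17e-07 in limma). Its second probe set was called higher as well, by 0.94 (adjusted p = 8.69e-05).

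Of the highest genes CG15358 had the largest rise, with log2 signals of 10.86 to 11.25 in line 859 and of 6.48 to 10.02 on the other arrays, and means of 11.14 ± 0.13 (SD, n = 3 media) and 8.15 ± 0.64 (SD, n = 7 lines). No array of another line reached it. The difference was 2.99, or 7.94-fold (SE 0.24, adjusted p = 1.56e-07 in limma), and by medium it was 3.05 (standard), 2.85 (tomato) and 3.07 (ethanol).

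CG31872 and blanks likewise had no overlap. CG31872 ran from 10.92 to 11.48 in line 859 and from 5.96 to 10.82 elsewhere, a difference of 2.60 (SE 0.17, adjusted p = 9.74e-09 in limma); line 158, at 10.51, came next. The gene blanks encodes a double-stranded RNA-binding protein needed in male germ cells for sperm formation. It ran from 9.89 to 10.27 in line 859 and from 7.43 to 9.10 elsewhere, 2.88-fold higher (log2 difference 1.53, SE 0.23, adjusted p = 2.58e-04). CG4835, the neighbour of blanks in gene order on arm 3L, was higher by 2.70 (SE 0.30, adjusted p = 7.87e-06), with 4 arrays overlapping and with a mean of 2.38 in line 158 against 4.98 to 7.15 in the other 6 lines.

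A pair of cytochrome P450 genes was in the same set. Cyp4p1 ran from 10.89 to 12.19 in line 859 and from 8.07 to 11.53 elsewhere, and was higher by 1.91 (SE 0.15, adjusted p = 1.17e-07 in limma), with line 786 next at 11.20. Cyp4e3 had signals of 9.58 to 12.53 in line 859 and of 2.17 to 12.50 elsewhere. At 18 arrays of other lines Cyp4e3 overlapped line 859, and line 774 was far lower than the rest, at a mean of 5.02; the difference was 2.57 (SE 0.47, adjusted p = 1.39e-03).

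Elp2 encodes a subunit of Elongator, a complex that modifies transfer RNAs. Its signals were 9.47 to 9.81 in line 859 and 6.92 to 9.62 elsewhere, 2.48-fold higher (log2 difference 1.31, SE 0.12, adjusted p = 4.31e-07 in limma), with line 158 next at 9.43. The other 5 genes, CG31157, CG11034, CG11788, CG2961 and CG15635, were higher by 1.33 to 1.69, each with 2 or 3 overlapping arrays. CG11788 and CG2961 were not called within the arrays of spaced titles alone, within those of hyphen titles alone, or on standard medium alone; their direction was the same there.

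**Figure D4:**
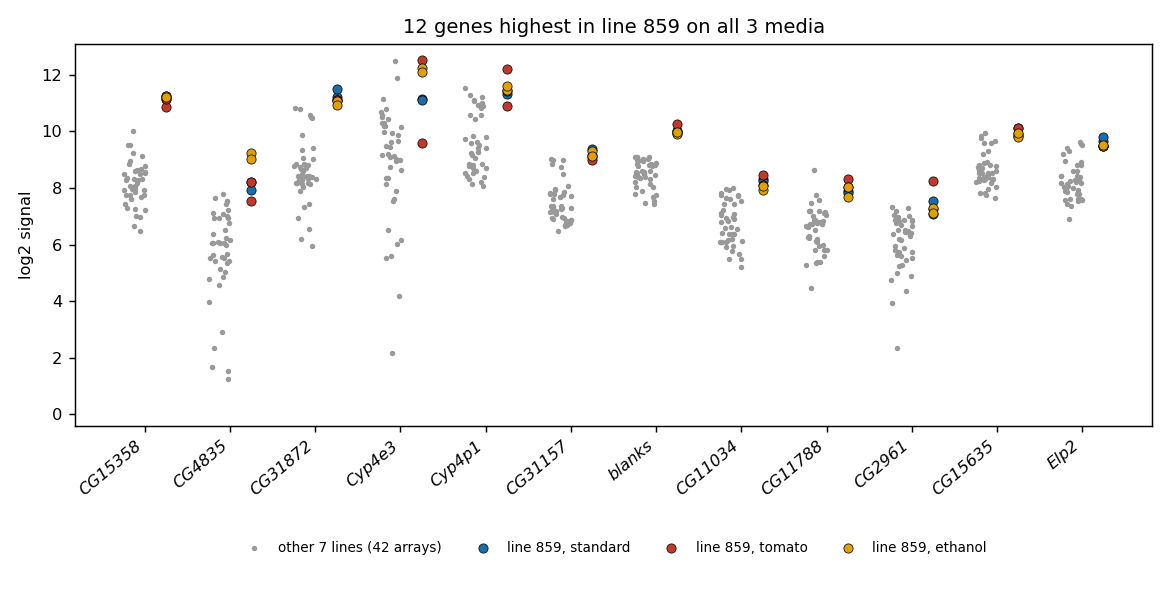
Log2 signal (vertical axis) of the 12 genes with the largest rises among those called and highest in line 859 on all 3 media. Grey points are the 42 arrays of the other lines and coloured points the 6 arrays of line 859 by medium. CG15358, CG31872 and blanks do not overlap, whereas 18 grey points of Cyp4e3 lie within the range of line 859. These 12 were picked for their rises. Among all tested probe sets the 6 arrays lay above the other 42 at 0.115%.

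Single arrays were also compared without a model. All 6 arrays of line 859 lay above the other 42 at 13 probe sets (0.115%) and below them at 35 (0.311%). For the other 7 lines the same counts ran from 2 to 23 and from 21 to 44. Further genes without overlap were Nepl21, a neprilysin-like peptidase gene, with signals of 6.02 to 6.67 in line 859 and of 7.82 to 10.36 elsewhere (log2 difference -2.67, SE 0.13, adjusted p = 2.28e-10 in limma), and Jheh2, a juvenile hormone epoxide hydrolase gene, with signals of 12.75 to 12.99 and of 11.33 to 12.68 (difference 1.02, SE 0.08, adjusted p = 6.85e-08). Nepl21 was chosen after its values were seen.

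Some of the largest differences were shared with other lines, so that line 859 joined one of 2 levels. Cyp12d1-d, a mitochondrial cytochrome P450 gene, had the largest rise of all, 5.53 (SE 0.33, adjusted p = 2.09e-09 in limma). Its mean was 11.05 in line 859 and 10.52 in line 380, against 2.61 to 5.70 in the other 6 lines. The gene has a near-identical neighbouring copy, Cyp12d1-p, with which its probes may share signal. It was named after its values were seen.

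The gut protease gene Jon74E showed the same form more sharply. Its mean was 13.78 in line 859 and 13.54 to 13.93 in lines 158, 379, 380 and 774, against 6.83 to 7.05 in lines 304, 362 and 786. The difference of line 859 from the mean of the 7 lines, 2.96 (SE 0.12, adjusted p = 5.02e-12 in limma), is thus a place in the upper of 2 levels. With medium and a single term for line 859 on single arrays, which leaves the spread between lines in the error, Jon74E was not called. Neither were Jon65Aii, Ser12, Cyp4e3, Cyp9b2, Cyp6a17, Cyp6w1, GstE11 and Obp57b, which are described here too. Ser12, another serine protease gene, averaged 9.28 in line 859 and 9.15 to 10.03 in lines 304, 379 and 774, against 4.22 to 5.03 in the other 4 lines.

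In 3 further genes line 859 also shared its level with 1 or 2 other lines. The sperm tail gene dj averaged 10.42 in line 859 and 10.71 in line 774, against 6.77 to 7.82 in the other 6 lines, and was called at 2.67 (SE 0.20, adjusted p = 5.49e-08 in limma). The accessory gland gene Acp98AB averaged 10.88 in line 859, 10.45 in line 786 and 10.95 in line 362, against 13.36 to 13.98 in the other 5, and was lower (log2 difference -1.99, SE 0.17, adjusted p = 2.89e-07). Gpxl averaged 4.70 in line 859 and 4.53 in line 158, against 8.29 to 8.61 elsewhere.

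Over all tested genes, 3.88% were called higher and 4.46% lower, and those shares are the background for the counts in gene lists. Of 31 tested glutathione S-transferase genes, 8 were lower, 2 were higher and 21 were not called in line 859, with a median log2 difference of -0.08 against 0.06 over all tested genes. Apart from GstE13, the lower members included GstE6, with signals of 10.53 to 10.81 in line 859 and of 11.17 to 12.34 elsewhere and no overlap (log2 difference -1.23, SE 0.10, adjusted p = 1.56e-07 in limma). GstE4 ran from 6.24 to 7.33 in line 859 and from 6.37 to 9.25 elsewhere, lower in line 859 (difference -1.35, adjusted p = 5.37e-04). GstE11 was lower (difference -1.13, adjusted p = 2.96e-05), but line 379 at 8.13 and line 774 at 8.25 lay below line 859 at 8.35.

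Cytochrome P450s and UDP-glycosyltransferases went both ways. Of 61 tested P450 genes, 9 were higher and 7 lower in line 859, with a median difference of -0.09, beside 3.88% and 4.46% of all genes. The list does not hold Cyp12d1-d, whose symbol its pattern did not match. Cyp9b2 averaged 11.04, close to 10.88 in line 774, and was called higher by 1.14 (SE 0.11, adjusted p = 7.58e-07 in limma) against a mean that holds line 362 at 6.75. Cyp6a17 was called higher by 1.14 against a mean that holds line 304 at 4.88, and without line 304 the difference was 0.39 (adjusted p = 0.286). Cyp6w1 averaged 10.82 in line 859, within the range of 10.07 in line 380 to 13.72 in line 774, and was lower (difference -1.06, SE 0.15, adjusted p = 1.38e-04). Of 23 UDP-glycosyltransferase genes, 3 were higher, led by Ugt303B3 (difference 0.99, adjusted p = 4.50e-03), and 4 were lower, led by Ugt302E1 (difference -2.72, adjusted p = 1.46e-06).

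Odorant-binding proteins held both the largest fall and a run of higher neighbours. Of 31 tested members, 5 were higher and 4 lower, beside 3.88% and 4.46% of all genes. Obp57a, Obp57b and Obp57c, which lie next to each other among the tested genes of arm 2R, were all called higher. Obp57a ran from 11.57 to 12.04 in line 859 and from 8.96 to 12.17 elsewhere (difference 1.30, SE 0.13, adjusted p = 2.79e-06 in limma); line 379 averaged 11.74 beside 11.78 in line 859. Obp57b was higher by 0.85 (SE 0.10, adjusted p = 1.35e-05) and Obp57c by 0.48 (SE 0.08, adjusted p = 9.89e-04), while line 158 averaged 10.08 and 11.16 at these genes and line 859 9.69 and 11.14. On the other side stood Obp99a, lowest in line 859 at 9.65 (difference -1.28, SE 0.25, adjusted p = 2.55e-03), and Obp56d, lowest at 11.55 (difference -0.76, SE 0.12, adjusted p = 3.72e-04).

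Among genes of gut digestion, the called higher members were serine protease genes and most of the lower ones were maltase genes. Of 48 tested members, 9 were higher, and these 9 are of the Jonah, trypsin and Ser families of serine proteases. The 7 lower ones were 4 maltase genes, the protease genes Jon25Bi and Jon66Cii, and the lysozyme gene LysX. Over all tested genes 3.88% were higher and 4.46% lower. The share called was not compared between families of the list, so this split describes the called members only. Jon44E, called higher, averaged 12.16 in line 859 beside 12.15 in line 362, against a mean that holds line 774 at 6.25. Jon66Ci, also called higher, averaged 9.20, below line 304 at 10.62, line 362 at 9.78 and line 786 at 9.23. Neither of them was called within spaced titles or within hyphen titles. Jon65Ai ran from 12.32 to 12.58 in line 859 and from 9.86 to 12.58 elsewhere and had its highest line mean there (difference 1.22, SE 0.19, adjusted p = 2.95e-04 in limma). Its neighbour Jon65Aii averaged 12.79, close to the 12.94 of line 379, and was higher by 1.76 (SE 0.20, adjusted p = 1.25e-05).

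The maltase genes split disaccharides in the gut. Mal-A1 averaged 11.30 in line 859, the lowest line mean, against 11.77 to 13.21 in the other lines (difference -1.38, SE 0.17, adjusted p = 3.24e-05 in limma). Mal-A7 had a difference of -1.35 (adjusted p = 4.75e-03), Mal-A8 of -1.26 (adjusted p = 2.57e-03) and Mal-A2 of -0.81 (adjusted p = 0.0138). None of these 3 was called within spaced titles (adjusted p = 0.337, 0.297 and 0.401) or within hyphen titles (0.426, 0.658 and 0.707), with the same direction in both. Mal-A1 was called within spaced titles and not within hyphen titles. LysX, with signals of 2.05 to 5.67 in line 859 and of 4.19 to 9.27 elsewhere, had a difference of -2.11 (adjusted p = 1.29e-03).

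Immune and clock genes gave a few calls. Def, which encodes the antimicrobial peptide defensin, ran from 6.74 to 7.90 in line 859 and from 6.88 to 11.64 elsewhere. It had its lowest line mean there (difference -2.01, SE 0.38, adjusted p = 2.18e-03 in limma), and 3 arrays of other lines overlapped. Of 29 immune genes, 3 were lower and 2 higher; the higher BomS2 was called against a mean that holds line 158 at 9.40, and without line 158 its difference was 0.25 (adjusted p = 0.465). Of 9 clock genes, 2 were lower and 0 were higher, beside 4.46% and 3.88% of all genes. Clk encodes an activator at the centre of the circadian clock and Pdp1 an activator of Clk. Clk averaged 6.49 in line 859 and 7.21 to 9.37 in the other lines (difference -1.37, SE 0.22, adjusted p = 4.93e-04), and Pdp1 averaged 8.06, close to 7.96 in line 774 (difference -1.21, SE 0.16, adjusted p = 5.64e-05). Pdp1 was not called within spaced titles (difference -0.59, adjusted p = 0.264) or on standard medium alone (difference -0.78, adjusted p = 0.0631), nor Clk within hyphen titles. The labels give no hour of collection.

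Marker genes of tissues and of sex were compared because the bodies were profiled whole. All 16 eggshell genes had higher means in line 859 than the average of the other lines, with a median difference of 0.66, and 0 of the 16 were called; their mean level ran from 10.31 to 12.26 on its arrays and from 3.45 to 13.03 on the others. The median level of the eggshell list was 11.94 over the arrays of line 859 and 11.86 over the others. Line 304 had a higher mean level of that list, 11.91, than line 859, 11.73. Of 22 germ line genes, 0 were called, with a median of 0.33. No yolk, muscle, neuron, cuticle or ribosomal protein gene was called among 3, 19, 20, 38 and 34 tested. Of the male lists, testis had 1 of 33 called, dj. In the accessory gland list 8 of 32 genes were higher and 1 was lower, with a median of 0.24. Among all genes 3.88% were higher and 4.46% lower. The accessory gland list was not exclusive. It shared Acp65Aa with the cuticle list and Mst57Da and Mst57Dc with the testis list, and none of these shared genes was called. Photoreceptor genes had a median of -0.30 with 2 of 14 lower, inaC and trpl; inaC was not called without line 774 (adjusted p = 0.0707), nor trpl without tomato array 4 (adjusted p = 0.0766) or without line 304, 362 or 774. The share of whole-body RNA that came from ovary, testis or accessory gland was not tested as a source of the differences above.

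The higher accessory gland genes encode seminal fluid proteins and differed modestly. Sfp33A3 had the highest line mean in line 859, at 11.33 against 9.20 to 11.12 in the other lines (difference 0.99, SE 0.14, adjusted p = 1.50e-04 in limma). Sfp26Ad averaged 10.94 against 9.72 to 10.65 (difference 0.84, SE 0.12, adjusted p = 1.99e-04). Acp53C14a was higher by 0.51 (SE 0.10, adjusted p = 3.55e-03). The mean level of the whole list was 10.75 to 11.10 on the arrays of line 859 and 10.25 to 11.23 on the others, so the arrays overlapped. After centring on the median the list had 6 higher and 3 lower members.

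**Figure D5:**
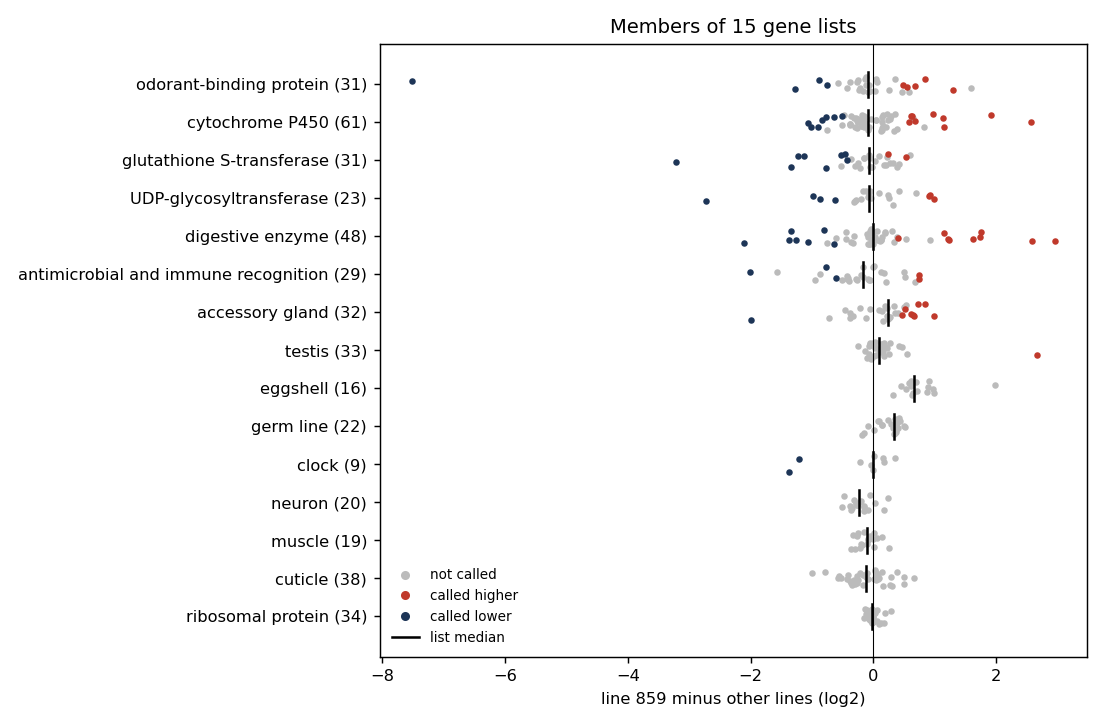
Log2 difference of line 859 from the other 7 lines (horizontal axis) for the tested members of 15 gene lists, with the number of members in brackets and a black bar at each list's median. Called members are red (higher) or dark blue (lower); Obp51a at -7.52 and GstE13 at -3.22 lie far from the medians of their lists, and the eggshell list, shifted by 0.66 at its median, holds 0 called members.

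Variation of the differences with medium was not detected at this number of arrays. A test of whether they varied with medium called 0 of 11261 probe sets (0%) in limma, with 264 at an unadjusted p under 0.05 against 563 that chance would give and a smallest adjusted p of 0.9996. Of the 6 genes of smallest p, Obp51a differed by -8.77 on standard, by -6.54 with tomato and by -7.25 with ethanol. For DptB, which encodes the antimicrobial peptide diptericin B, the differences in the same order were -5.10, -0.84 and 1.25. The 6 arrays of line 859 ran from 2.77 to 9.77, and the overall difference was -1.57 (SE 0.95, adjusted p = 0.383). Tmf differed by -1.07, -1.52 and -3.46 on the 3 media in the same order, and Gpxl by -4.53, -2.22 and -2.96.

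Called genes lay on all arms, and some had an adjacent gene called in the same or in the opposite direction. By the RefSeq gene table (Release 6 plus ISO1 MT), 9.86% of tested genes were called on arm 2R, 9.22% on 3L, 8.38% on 2L, 8.29% on 3R, 5.63% on X and 1.72% on chromosome 4. Of the 145 lowest genes, 47 were on 3R, which holds 2317 of the 9419 tested genes, and 36 on 2R, which holds 1938. Of 784 called genes that could be placed, 105 had an adjacent tested gene called in the same direction, or 13.4%, and 93 had one called in the opposite direction. How many such neighbours the overall share of calls would give was not tested. There were 7 runs of 3 or more, the longest of 5.

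Several runs held genes named above. The lower run on 2R from Mal-A7 and Mal-A8 to Cyp6a14 and Cyp6a13 was the longest. CG3397 followed CG18547 and CG12224 on 3R. The difference was -0.61 for CG18547 (adjusted p = 3.42e-03 in limma), -1.96 for CG12224 (adjusted p = 5.36e-05) and -6.73 for CG3397, and CG12224, like CG3397, did not overlap the other arrays. On 3R, Hsc70-2, CG31157 and CG7966 were higher together, by 0.82, 1.69 and 1.43. Line 362 came next at Hsc70-2 (9.33 against 9.76 in line 859) and at CG31157 (8.85 against 9.18). At CG7966 line 362 averaged 11.22, above the 11.17 of line 859. The call of Hsc70-2 was lost without line 304 (adjusted p = 0.081) or without line 774 (adjusted p = 0.060). In the lower run GstE4, GstE5 and GstE6 the middle gene had a difference of -0.43. It averaged 8.30 in line 859, above 7.24 in line 379 and 7.29 in line 786. Its call was lost without tomato array 1 (difference -0.30, adjusted p = 0.169) or without line 158, 304, 362 or 774. Among other genes described above, GstE4, GstE5, CG18547, Hsc70-2, inaC, trpl and BomS2 were not called within either kind of title alone. Acp53C14a was not called within spaced titles, nor CG12224, Ugt302E1, Cyp6w1, Cyp6a17 and Obp57c within hyphen titles. Each kind of title holds fewer arrays. Probe sets of closely related genes may share signal, which was not tested.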

How the data were processed

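Per the submitters' processing notes, MAS5 (no version stated) produced the linear signal intensities that the authors deposited. Tested on the values, the mean of each array after trimming 2% at each end was 500.009 to 500.016, so each had been scaled to 500. Depth is limited by the number of arrays; no detection calls or scan dates were used.

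Deposited intensities under 1 were raised to 1 before log2 was taken. Leaving aside 183 array controls among 18952 probe sets, the upper 60% by mean log2 signal entered the tests, 11261 in all, above a signal of 59.7. The platform annotation listed 1 symbol for 13647 of the 18769 non-control sets, several for 402 and none for 4720; 13544 matched the RefSeq gene table, used for names, arms and gene order. A gene stands for its tested probe set of highest mean signal, and 103 called probe sets had no single symbol.

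Line 859 was set against the mean of the other 7 lines with limma 3.58.1 in R 4.3.3, with an intensity trend, on the 24 means of line and medium combinations with medium and line as terms (14 residual degrees of freedom). The test against the spread of lines used 8 line means (6 degrees of freedom), and the test by medium used single arrays with 24 combinations (24 degrees of freedom). Called means an adjusted p below 0.05 (Benjamini-Hochberg, over all tested probe sets). Scripts were tested on simulated data.

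The comparison, the 25 gene lists and the tests were chosen with earlier results of these data known. The rule named the 12 largest rises and 12 largest falls among genes called and extreme on all 3 media, the 10 smallest p against the spread of lines, the 6 smallest p by medium, and up to 4 called members of smallest p in each list, 72 genes in all. A further 22 genes were added after their values were seen: the 4 that complete the count against the spread of lines, neighbours of named genes, and members such as Cyp12d1-d, which the P450 list missed by its spelling, Jon65Ai, LysX, Obp99a, Nepl21 and Arc1.

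Array numbers 1 and 2 occur in 15 combinations. Deviations of same-numbered arrays from their group means correlated over 0.1 in 29 of 105 pairs of combinations (lowest -0.767, median -0.016), so numbers were not taken to pair arrays.

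Alternatives were other scalings, filters and a pseudocount, single arrays as units, blocks for title style and array number, the eggshell index as covariate, subsets of arrays, and leaving out each array of line 859 or each other line.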

Additional observations from a re-analysis of the deposited data

Results flagged for a closer look

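In 7 of 106 sets of 6 values from line 859, 1 array lay far from the other 5, by Dixon's criterion at 95%; chance gives about 1 in 20, so 7 is near that share. Of the 7, 5 were on tomato array 4 and 2 on tomato array 1. On tomato array 4 the eggshell index was 11.148, while on the other 5 arrays it was 12.78 to 13.25. On the same array blanks was high at 10.273, Ugt37A2 at 9.9277, the lipase gene bmm at 11.067 and the gut protease gene Jon66Ci at 9.9555. On tomato array 1, CG15358 was low at 10.86 beside 11.13 to 11.25 on the other arrays, and the scavenger receptor gene Sr-CI was low at 6.1025. CG15358 at 10.86 was still above the highest array of any other line, 10.02.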

How the results depend on the processing

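The main count of 970 called probe sets ran from 930 to 1074 when each array of line 859 was left out and from 791 to 1336 when each other line was. The count of genes extreme on all 3 media, 235, ran from 206 to 248 over arrays and from 243 to 360 over lines, with 360 without line 380. The 16 probe sets apart from the spread of lines became 14 to 20 over arrays and 14 to 16 over lines, and the 48 without overlap 48 to 59 and 53 to 65. The upper 40% of probe sets gave 641 calls and 7 apart. Arrays with spaced titles gave 288 calls and 141 extreme genes, those with hyphen titles 211 and 108, and standard medium alone 550 calls. The 2 ethanol arrays of line 859 have hyphen titles, and no standard array of any line has one. The counts of 141 and 108 therefore do not cover all 3 media and cannot be compared with 235. On ethanol medium the hyphen titles hold only line 859 and line 362. Each of these 3 subsets also uses fewer arrays. All 24 genes named as most extreme kept their direction in these 3 subsets, and 22 were called in each. Single arrays gave 1559 calls with error within combinations and 516 with medium and 1 term for line 859. They gave 1583 with title style as a block, 1762 with the array number as a replicate block and 1872 with the eggshell index as a covariate. Title style as a block gave 1 call by medium. Line as a random block (consensus correlation 0.275) gave 104 apart. The causes of these shifts between error models were not tested. Without the 9 arrays of lowest eggshell index there were 665 calls and 167 extreme genes. Of 2506 pairs of a named result and an alternative, 2326 kept direction and call, 180 lost the call and 0 reversed. Falls near the floor changed in size. Over the alternatives the difference came as small as -2.94 for CG33490, -3.89 for CG3397, -2.71 for CR11023 and -2.86 for CG30083. For Obp51a it came as small as -5.54, while GstE13 stayed between -3.29 and -3.02. The small number of arrays, and weak signals with no background measure, limit the precision.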

Other observations

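Smaller lists held few called members, beside 8.33% of all tested genes called (3.88% higher and 4.46% lower). The share called was 9.52% for serpins and 7.69% for heat shock genes, near that of all genes. It was 16.7% for lipid genes, 12.5% for fat body and haemocyte genes, 25% for metallothioneins and 16.7% for ethanol metabolism. Each of these latter lists holds at most 18 genes. Among 21 serpin genes, which encode inhibitors of serine proteases, Spn88Eb was lower in line 859 (log2 difference -1.20, SE 0.24, adjusted p = 3.03e-03 in limma) and Spn75F higher by 0.56 (adjusted p = 0.0163), or by 0.42 without line 774 (adjusted p = 0.116). Spn88Eb had its lowest line mean there, 7.35 against 7.93 to 9.23 in the other lines. It was not called within spaced titles (adjusted p = 0.0963 in limma) or within hyphen titles (adjusted p = 0.404). Of 18 lipid and fatty acid genes, Jheh2 and Elovl7, an elongase gene, were higher, Elovl7 by 0.57 (adjusted p = 2.51e-03), and the lipase gene bmm was lower at -0.32 (adjusted p = 0.0353). Elovl7 averaged 11.045 in line 859, below 11.083 in line 304, 11.114 in line 379 and 11.163 in line 774. The remaining lines averaged 9.57 to 10.16. Elovl7 was not called within spaced titles (adjusted p = 0.23 in limma) or within hyphen titles (adjusted p = 0.347). Without tomato array 1 the difference of bmm was -0.25 (adjusted p = 0.15), and its call was lost without line 304, 774 or 786 as well.

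Of 16 fat body and haemocyte genes, 2 were lower, the scavenger receptor gene Sr-CI at -0.74 (adjusted p = 0.0112 in limma, or 0.0728 without line 158) and the Nimrod gene NimC3 at -0.60 (adjusted p = 4.69e-03). Line 362 averaged 5.62 at NimC3, below 5.74 in line 859, and line 379 averaged 6.85 at Sr-CI, below 6.90 in line 859. Neither gene was called within spaced titles, within hyphen titles or on standard medium alone. Of 4 metallothionein genes, which encode metal-binding proteins, MtnC was lower at -1.01 (adjusted p = 5.37e-03). Its arrays in line 859 ran from 9.80 to 12.63, within the 9.89 to 13.71 of the others but for the lowest, and without tomato array 1 its adjusted p was 0.0849. Of 13 heat shock genes 1 was called, Hsc70-2 (7.69%), and of 6 genes of ethanol metabolism 1, Men-b, beside 8.33% of all tested genes. Men-b was lower at -0.38 (adjusted p = 0.0490). It was not called without standard array 1 (adjusted p = 0.0789), tomato array 4, ethanol array 3, or line 158, 304, 362 or 774. The 1 tested chemosensory receptor gene and the 1 tested Turandot gene were not called.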
